A study of Mus musculus with 18 samples.

Results

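Transcript levels of Fmr1 knockout (KO) and wild-type (WT) mouse cortical neurons were compared in vehicle, that is, without any active drug. The comparison rests on the 6 libraries labelled dmso, 3 WT and 3 Fmr1 KO, out of 18 samples in the study, and on every gene of the deposited count table apart from the spike-in sequences. Of 37310 such genes, 15433 had enough reads to be tested. The neurons were grown in B27-supplemented Neurobasal medium, and DMSO was added for 24 h at 7 days in vitro. The remaining samples were given the BET bromodomain inhibitor JQ1 or the CDK7 inhibitor THZ1. The 6 JQ1 libraries enter below as another comparison of the same genotypes, and they share the fit that estimates the scatter. The 6 THZ1 samples were not analysed here. The labels do not give the strain, the age or sex of the animals, or the kind of Fmr1 allele. They number the libraries of each genotype 1 to 3 without saying whether these are separate cultures or animals. The p-values therefore speak only to the scatter among libraries, estimated over these 6 and the 6 JQ1 libraries together. The DMSO libraries are called WT 1 to WT 3 and KO 1 to KO 3.

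Fmr1, an X-linked gene, encodes FMRP, an RNA-binding protein that sits on polyribosomes, binds many long neuronal messenger RNAs and represses their translation. In people its silencing causes fragile X syndrome, and mice without Fmr1 are the usual model. FMRP-bound messages encode many synaptic scaffolds, release factors and chromatin regulators, and signalling through group I metabotropic glutamate receptors is known to be exaggerated when FMRP is missing. Transcript levels, as measured here, do not show protein output.

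The WT libraries held 33118140, 36859618 and 35006469 gene counts and the KO libraries 53564043, 64000804 and 53174615, so every KO library was deeper than every WT library. Values are counts-per-million (CPM) of library sizes scaled by TMM, the scaling of edgeR. The cultures expressed the cortical factor gene Emx1 (31.7, 31.4 and 29.6 CPM in WT, 36.2, 32.4 and 32.7 in KO) and the vesicular glutamate transporter gene Slc17a7 (99.2, 105 and 104, then 100.4, 118 and 112). Neither passed the test between genotypes, and these markers of dorsal forebrain neurons were present in all 6 libraries. Spike-in RNA took 0.119% to 0.173% of the counts in WT and 0.169% to 0.348% in KO. Scaling to the spike-ins moved the median of all genes by -0.82 on the log2 scale and left 4 genes higher and 11990 lower in KO, and each change below is thus taken relative to the bulk of genes.

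KO 3 and WT 3 each stood apart in particular genes. Xist, the RNA that coats the inactive X chromosome of female cells, was at 353, 245 and 288 CPM in WT and at 231, 262 and 4.29 in KO. Ddx3y, a Y-linked helicase gene, was at 34.8, 34.96 and 35.3 CPM in WT and at 28.1, 29.1 and 54.5 in KO. KO 3 was thus nearly devoid of Xist and highest in Ddx3y, while the other 5 libraries expressed both. In JQ1, KO replicate 3 was at 4.34 CPM of Xist, and whether libraries of the same number share a culture is not given. Across genes the counts of KO 3 differed from those of KO 1 and KO 2 with chi-square values, divided by their degrees of freedom, of 40.1 and 40.9, while KO 1 and KO 2 differed by 7.82 and the WT libraries by 4.77 to 12.7. In KO 3 the 13 protein genes of the mitochondrial genome summed to 44780.0 CPM, against 23790.0 and 27000.0 in the other KO libraries and 28360.0 to 37550.0 in WT.

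WT 3 had the highest levels of Lhx8, Nkx2-1, Isl1 and Zic4, transcription factor genes of the subpallium and septum, regions below the cortex. Lhx8 was at 0, 0 and 1.71 CPM in WT and 1.04, 0.325 and 0.847 in KO, and Zic4 at 0.674, 0.2895 and 4.04 and 2.14, 2.96 and 2.36. Over 7 such genes, chosen after their values were seen, the levels summed to 7.38, 3.74 and 26.0 CPM in WT and 17.3, 19.3 and 18.2 in KO. WT 1 and WT 2 were low, WT 3 and the KO libraries were higher, and 0 of the 7 genes passed the test between genotypes in edgeR (0 at an unadjusted p under 0.05), nor any of the 6 with an adjusted p in DESeq2.

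**Figure D1:**
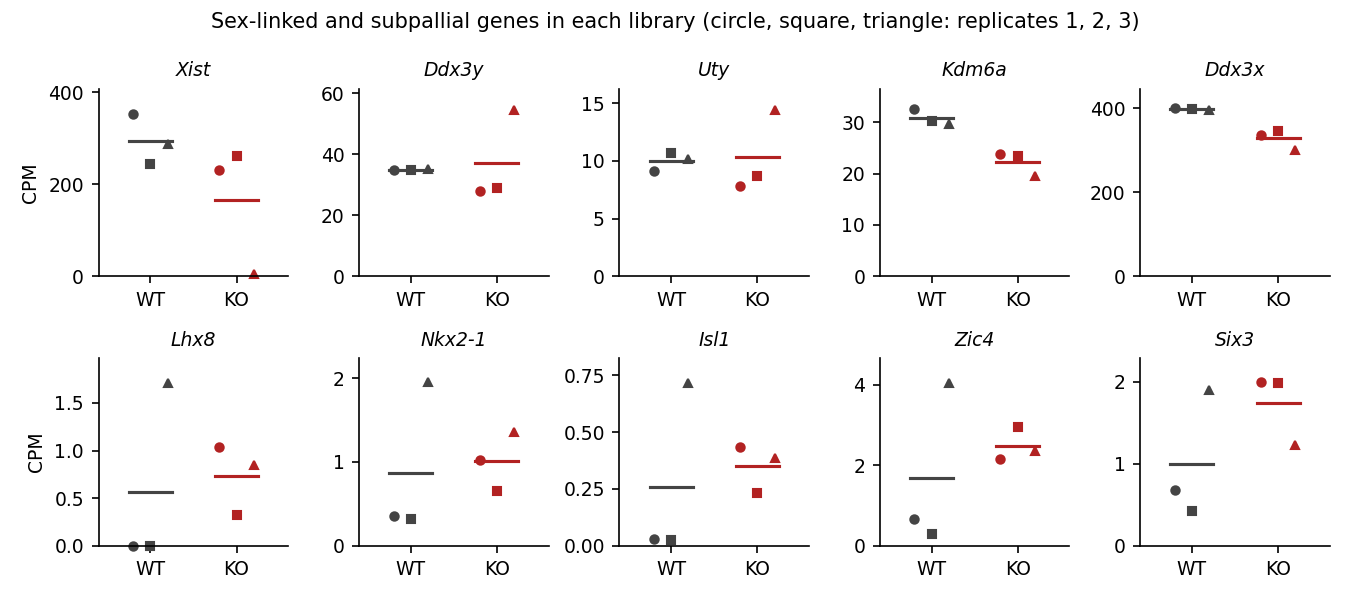
Levels (CPM, axis from 0) of sex-linked genes (upper row) and of subpallial and septal transcription factor genes (lower row) in the 3 WT and 3 KO libraries in DMSO. Symbols mark replicates 1 to 3 and bars the mean of 3. KO 3 has 4.29 CPM of Xist and the highest Ddx3y, Kdm6a and Ddx3x are lower in every KO library, and Lhx8 is at 0 in WT 1 and WT 2 alone.

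Loss of Fmr1 went with many small changes in both directions. Of 15433 genes, 2311 (15%) differed at an adjusted p below 0.05 (quasi-likelihood test of edgeR, Benjamini-Hochberg), of which 1113 (7.21%) were higher in KO and 1198 (7.76%) lower. Such genes are said below to have risen or fallen. Under 1.5-fold changes made up 1047 of the rises and 1040 of the falls, and only 21 and 40 genes exceeded 2-fold (0.395% of genes tested together). The first principal component of the 6 libraries held 38.9% of the variance and parted the genotypes, with WT between -17.4 and -13.8 and KO between 9.35 and 23.1. In 5803 genes (37.6%) the WT and KO libraries did not overlap. Just inside the threshold lay Zbtb40 (log2 change 0.26) and just outside it Gad2, a GABA-synthesising enzyme gene (0.32).

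The number of calls depended on the libraries. It was 3198 without the KO replicate 3 libraries of DMSO and JQ1, and 2509 without KO 3 alone. It was 1218, 1155 and 1243 without WT 1, WT 2 or WT 3, and 805 and 1195 without KO 1 or KO 2. These counts are the backdrop to every list count given below for a left-out library. The lists were chosen with earlier results of these data known. A list's share set beside that of all genes therefore describes its members and is not a test. The shares of all genes, 7.21% higher and 7.76% lower, are the measure for every list count below. Where a list had 0 calls in a direction, leaving out libraries gave at most 2 there unless stated. In 13 other settings of the fit 683 of the 2311 genes kept their call throughout, 365 higher and 318 lower, and no called gene changed direction in any of them. Spike-in scaling is not among these 13. Under it 1201 of the 2311 genes kept their call with the same sign and 131 took the other sign. Genes printed below with an adjusted p under 0.05 kept their call in all 13 unless a left-out library or another setting is named beside them.

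**Figure D2:**
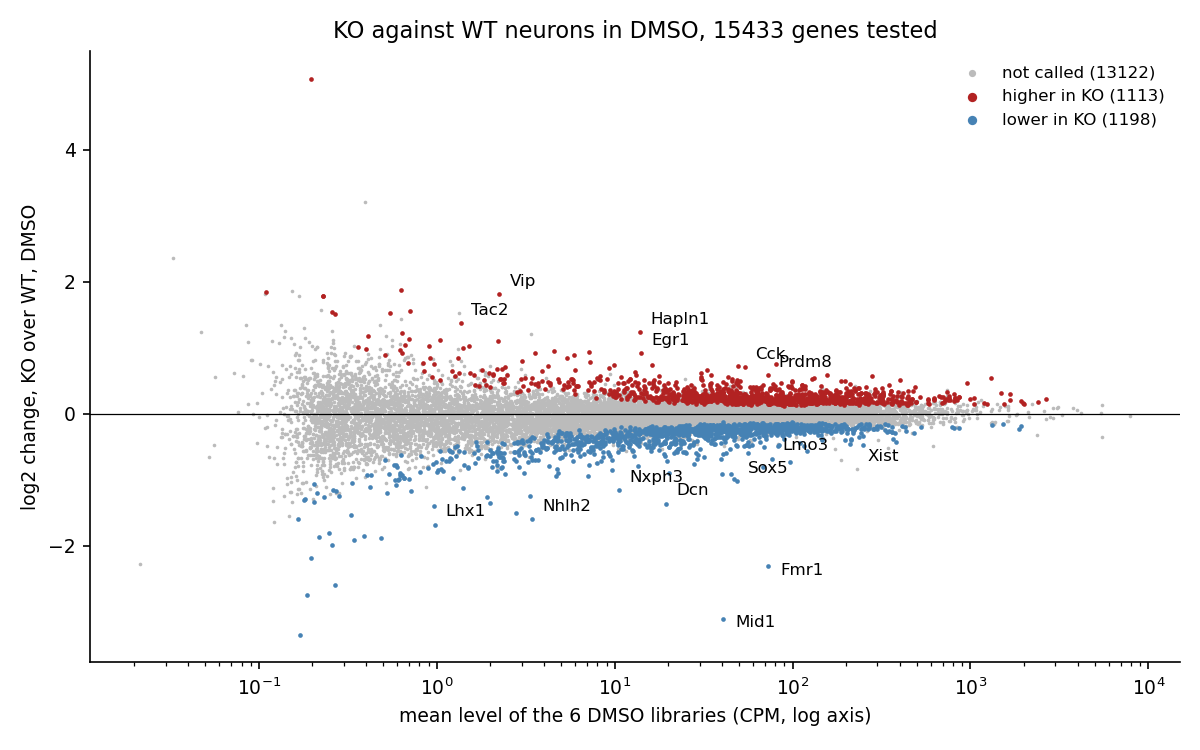
Log2 change of KO over WT in DMSO against the mean level of the 6 libraries (CPM, log axis) for 15433 genes. Red points are the 1113 genes called higher and blue points the 1198 called lower. Among genes above 10 CPM Mid1 and Fmr1 lie lowest, and most calls lie within 1 log2 unit of 0.

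Fmr1 transcripts were low in every KO library. Fmr1 (ENSMUSG00000000838) was at 124, 119 and 119 CPM in the WT libraries and at 21.5, 22.2 and 29.4 in the KO libraries. The groups were far apart, KO 3 being the highest of the KO libraries, and the log2 change was -2.31 (SE 0.113, adjusted p = 9.2e-08). All 6 libraries thus went with their genotype labels, while a part of the signal remained. The table of counts per gene does not show which exons the remaining reads came from. Of 18 tested genes of the FMRP family and its protein partners, Fmr1 and Fxr1 fell and 0 rose (median -0.08, against -0.01 for all genes). The paralogue Fxr1 was at 61.7, 64.2 and 63.02 CPM in WT and 57.1, 56.8 and 56.6 in KO (log2 change -0.15, adjusted p = 0.04599), and lost its call in 11 of 13 settings, including whenever 1 of the 6 libraries was left out. Fxr2, the other paralogue, was at 81.8, 85.4 and 82.4 CPM and 87.4, 87.8 and 85.4. The actin regulator genes Cyfip1 and Cyfip2, whose products bind FMRP, had log2 changes of -0.10 (adjusted p = 0.1804) and 0.16 (0.0645) and did not pass.

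Mid1 changed more than Fmr1. Mid1 (ENSMUSG00000035299), an X-linked ubiquitin ligase gene whose product binds microtubules and targets protein phosphatase 2A, was at 88.1, 79.5 and 49.8 CPM in WT and 8.07, 7.69 and 9.57 in KO. Every KO library was below every WT library, of which WT 3 was the lowest, and the log2 change was -3.10 (SE 0.184, adjusted p = 6.54e-07). Its relative Mid2 was at 29.5, 28.1 and 32.2 CPM and 28.5, 29.9 and 27.4, and Ppp2ca, the catalytic subunit gene of that phosphatase, at 519, 515 and 526 and 485, 487 and 449, and neither passed.

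The neighbours of Fmr1 and Mid1 were examined in the gene order of the GENCODE annotation of GRCm38. Of the 5 tested genes on either side of Fmr1, 10 in all, 0 were called in edgeR, with 4 at an unadjusted p under 0.05, while DESeq2 called 3 of 9, Slitrk2, Gm14698 and Aff2. The tested genes next to Fmr1 in order were the synaptic adhesion gene Slitrk2 on one side and Gm14698 on the other. In edgeR their log2 changes were -0.27 (adjusted p = 0.0549) and -0.35 (0.0685). Aff2, a nuclear factor gene, had one of 0.32 (0.0733). On the near side of Mid1 0 of 5 were called in edgeR (0 at an unadjusted p under 0.05) and 0 of the 4 to which DESeq2 gave an adjusted p, among them the chromatin gene Msl3 (-0.08) and the haem lyase gene Hccs (-0.08). Only 3 tested genes lay on its far side, toward the end of the X chromosome, and all 3 are gene models of low level. G530011O06Rik fell from 1.05, 0.737 and 0.523 CPM to 0.0909, 0.263 and 0.258 (log2 change -1.88, adjusted p = 0.00874). Gm15726 fell from 0.4102, 0.342 and 0.2201 CPM to 0.0364, 0.0309 and 0.0736 (-2.75, adjusted p = 0.00306). Gm15247 was at 0.4395, 0.211 and 0.0275 CPM in WT and 0.0364, 0.139 and 0.0368 in KO and did not pass (adjusted p = 0.142). Both calls were lost in 0 of the 11 settings that tested these genes. The sources used here do not say whether the counting used strand, so reads of models that overlap Mid1 cannot be told apart from its own.

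The X chromosome had more falls than rises, as did several autosomes. Of its 546 tested genes 20 rose and 68 fell (16.1% called, against 15% of all genes), with a median log2 change of -0.09. Chromosome 12 had 17 rises and 52 falls, chromosome 13 had 27 and 70, and chromosome 3 had 32 and 68, while chromosome 7 had 116 rises and 62 falls. Without both KO replicate 3 libraries, which removes the library low in Xist, 36 rose and 92 fell. Rises numbered 10 without KO 1, 12 without WT 2, WT 3 or KO 2, 13 without WT 1 and 31 without KO 3, and falls 22 without KO 1, 31 without WT 3, 32 without KO 2, 33 without WT 1 or WT 2 and 67 without KO 3. Glra2, an X-linked glycine receptor subunit gene of immature neurons, was at 88, 82.8 and 87.9 CPM in WT and 44.5, 50.7 and 53.2 in KO (log2 change -0.80, adjusted p = 0.000136). Kdm6a, a histone demethylase gene that escapes X inactivation, was at 32.5, 30.2 and 29.6 CPM and 23.8, 23.4 and 19.4 (-0.47, adjusted p = 0.00283). Ddx3x, a helicase gene that also escapes, was at 399.8, 397 and 396 CPM and 335, 347 and 301 (-0.28, adjusted p = 0.00557). Both were lowest in KO 3, and KO 1 and KO 2 were also below all WT libraries. Of the 9 tested genes that report the sex of the cells, these 2 fell and 0 rose. Kdm5c, also of that set, was at 72.6, 74.3 and 89.0 CPM in WT and 93.9, 97.1 and 73.4 in KO. Eif2s3x was at 265, 245 and 243 CPM and 245, 242 and 191. Neither passed (adjusted p = 0.319 and 0.225). The part of the sex of the cells in these falls was not tested.

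The strong rises with at least 10 CPM included genes of synapses and a repressor gene. Prdm8, a transcriptional repressor gene of cortical projection neurons, was at 56.2, 61.96 and 55.2 CPM in WT and 88.5, 82.9 and 89.5 in KO. The gap between genotypes was wider than the spread within either, and the log2 change was 0.59 (SE 0.0525, adjusted p = 4.19e-05). Synpo, the actin-binding protein of the spine apparatus, was at 12.1, 11.8 and 12.7 CPM and 19.7, 20.9 and 20.5 (0.74, adjusted p = 0.000136). Hpca, the neuronal calcium sensor hippocalcin, was at 55.7, 67.96 and 57.3 CPM and 96.8, 104 and 104 (0.75, adjusted p = 0.00192). That the genotypes did not overlap was a condition for naming these genes, and it held in 37.6% of all genes tested. Eef1a2 (0.40), the translation elongation factor form of neurons and muscle, Cdk5r2 (0.49), an activator of the kinase Cdk5, and Kcnk9 (0.58), a leak potassium channel gene, rose as well. So did the receptor phosphatase gene Ptpru (0.73), the extracellular protease genes Prss12 (0.67) and Adamts17 (0.61), the sulfotransferase gene Chst1 (0.44) and the PDZ-domain ubiquitin ligase gene Pdzrn3 (0.56).

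Beside Fmr1 and Mid1, a cofactor gene and a kinesin gene were among the strongest falls. Lmo3, a LIM-only transcriptional cofactor gene, was at 93.1, 90.3 and 98.3 CPM in WT and 56.4, 61.5 and 58.2 in KO (log2 change -0.68, SE 0.05303, adjusted p = 1.35e-05). Kif26a, an atypical kinesin gene, was at 57.9, 56.1 and 62.6 CPM and 26.8, 34.1 and 33.3 (-0.91, adjusted p = 0.000162). Cyp26b1, an enzyme gene that degrades retinoic acid, was at 14.1, 10.1 and 13.2 CPM and 6.29, 7.02 and 7.36 (-0.85, adjusted p = 0.00355). KO 1 was the lowest library in each of these 3 genes. Here too, genes were named only if the genotypes did not overlap. Cntn6, an axonal adhesion molecule gene, fell by 0.79 on the log2 scale, Itm2a, a membrane protein gene, by 0.71, Nab1, a corepressor of Egr factors, by 0.54, and the centrosomal protein gene Nin by 0.48.

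**Figure D3:**
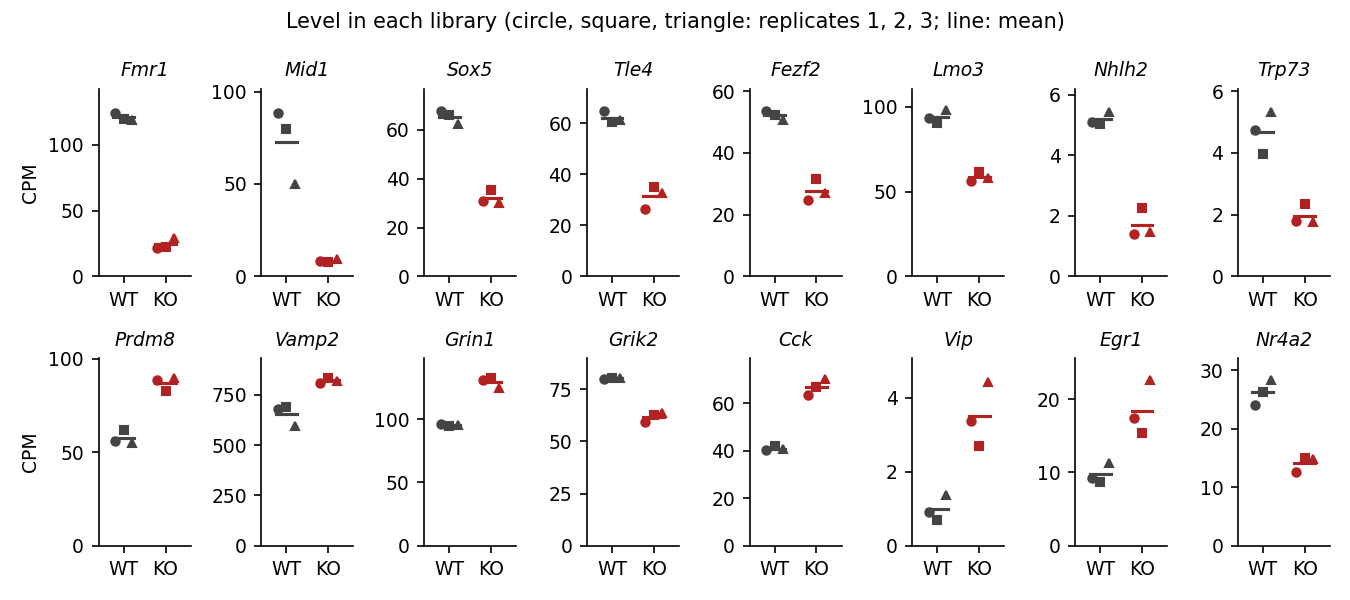
Level in each library (CPM, axis from 0) of 16 genes, with WT in grey and KO in red. Symbols mark replicates 1 to 3 and bars the mean of 3. The genotypes do not overlap in any panel, and the gap is widest relative to the level for Fmr1, Mid1, Nhlh2 and Vip.

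Deep-layer cortical neurons, which project out of the cortex from layers V and VI, are specified by factors such as Fezf2, Sox5, Tbr1 and Bcl11b. Of 27 tested genes of these neurons 17 fell and 1 rose, 63% against 7.76% of all genes lower, with a median of -0.49 against -0.01. This list too was chosen with earlier results known, so the shares are descriptive. The count of falls stayed between 13 and 17 when any 1 of the 6 libraries was left out. In bulk RNA, fewer cells of a type and less RNA per cell cannot be told apart. Sox5, which times the production of these neurons, was at 67.8, 65.96 and 62.2 CPM in WT and 30.9, 35.4 and 29.9 in KO (log2 change -1.02, SE 0.0762, adjusted p = 9.17e-06). Fezf2, which specifies neurons that project below the cortex, was at 53.7, 52.2 and 50.5 CPM and 24.6, 31.6 and 26.9 (-0.91, adjusted p = 0.000201). Tle4, a corepressor of layer VI neurons, was at 64.8, 60.4 and 61.1 CPM and 26.5, 35.01 and 32.7 (-0.98, adjusted p = 0.000183). All 3 were close to 2-fold lower, KO 2 being the highest KO library in each, with wide gaps to WT.

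The milder falls of that list were also regular. Bcl11b, the factor gene of subcerebral projection neurons, was at 138, 125 and 143 CPM and 91.5, 99.8 and 97.6 (log2 change -0.49, adjusted p = 0.000289), and Tbr1, the layer VI factor gene, at 135, 118 and 126 and 86.9, 96.5 and 95.9 (-0.44, adjusted p = 0.000627). Nxph3, a neurexin ligand gene (-1.16), Tox, a chromatin-binding factor gene (-0.71), Hs3st4, a heparan sulfate sulfotransferase gene (-0.76), Zfpm2, a GATA cofactor gene (-0.52), and Rprm, a cell-cycle inhibitor gene (-0.25), fell too. The member that rose was Igfbp4, a binding protein of insulin-like growth factors, from 30.4, 25.5 and 26.9 CPM to 42, 42.2 and 40.8 (0.59, adjusted p = 0.00291). Foxp2, Pcp4 and Crym, further markers of these layers, were at log2 changes of -0.09, -0.06 and 0.35 and did not pass.

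Genes of upper-layer neurons, which connect cortical areas, were more often higher than lower in KO. Of 21 tested genes 8 rose (38.1%, or 4 without WT 3 or KO 2 and 5 without WT 2 or KO 1) and 2 fell (1 without WT 1 or WT 2 or WT 3 or KO 2 or KO 3 or both KO replicate 3 libraries), with a median of 0.16. Mdga1, an adhesion molecule gene of layer II and III neurons, was at 116, 122 and 135 CPM in WT and 190.0, 196 and 175 in KO (log2 change 0.59, adjusted p = 0.00032). Cux2, a factor gene of upper layers, was at 66.4, 59.7 and 62.8 CPM and 72.9, 76.96 and 85.3 (0.32, adjusted p = 0.00514). Lhx2 (0.34), a LIM-homeodomain factor gene of the cortex, and Pou3f2 (0.52), a POU factor gene that promotes upper-layer fate, rose too. Kitl, which encodes the ligand of the receptor Kit, fell from 142, 138 and 150.2 CPM to 99.6, 96.3 and 95.8 (-0.56, adjusted p = 0.000254), against the list's median. Of 19 genes common to glutamatergic neurons 3 rose (15.8%) and 2 fell (10.5%), with a median of -0.05. The vesicular transporter gene Slc17a6 (0.24) and the kinase gene Camk2a (0.36) rose, and Tbr1 and the nuclear factor gene Nfib (-0.45) fell.

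Cajal-Retzius cells are early-born neurons of the cortical surface that secrete reelin. Of 21 tested genes of these cells 8 fell (38.1%, or 5 without WT 3 or KO 2) and 1 rose (0 without WT 1 or WT 2 or KO 1 or KO 2 and 2 without WT 3), with a median of -0.21. Nhlh2, a helix-loop-helix factor gene, was at 5.099, 5.03 and 5.42 CPM in WT and 1.399, 2.24 and 1.45 in KO (log2 change -1.59, adjusted p = 0.000162). Lhx1, a LIM-homeodomain factor gene, was at 1.47, 1.395 and 1.62 CPM and 0.563, 0.495 and 0.331 (-1.68, adjusted p = 0.00122). Ebf3, an early B-cell factor family gene, was at 1.29, 1.42 and 1.46 CPM and 0.509, 0.526 and 0.552 (-1.39, adjusted p = 0.00192). These factors were low in all libraries and still parted the genotypes without overlap. Trp73, the p53 relative that marks Cajal-Retzius cells of the cortical hem, was at 4.75, 3.97 and 5.34 CPM and 1.78, 2.34 and 1.77 (-1.25, adjusted p = 0.00175), and Dmrt2, a DM-domain factor gene, at 4.601, 3.69 and 4.13 and 1.05, 1.72 and 1.58 (-1.50, adjusted p = 0.00099). Reln itself, which interneurons also express, was at 139, 143 and 229.8 CPM in WT and 211, 219.5 and 177 in KO, overlapped between genotypes and did not pass (adjusted p = 0.363).

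**Figure D4:**
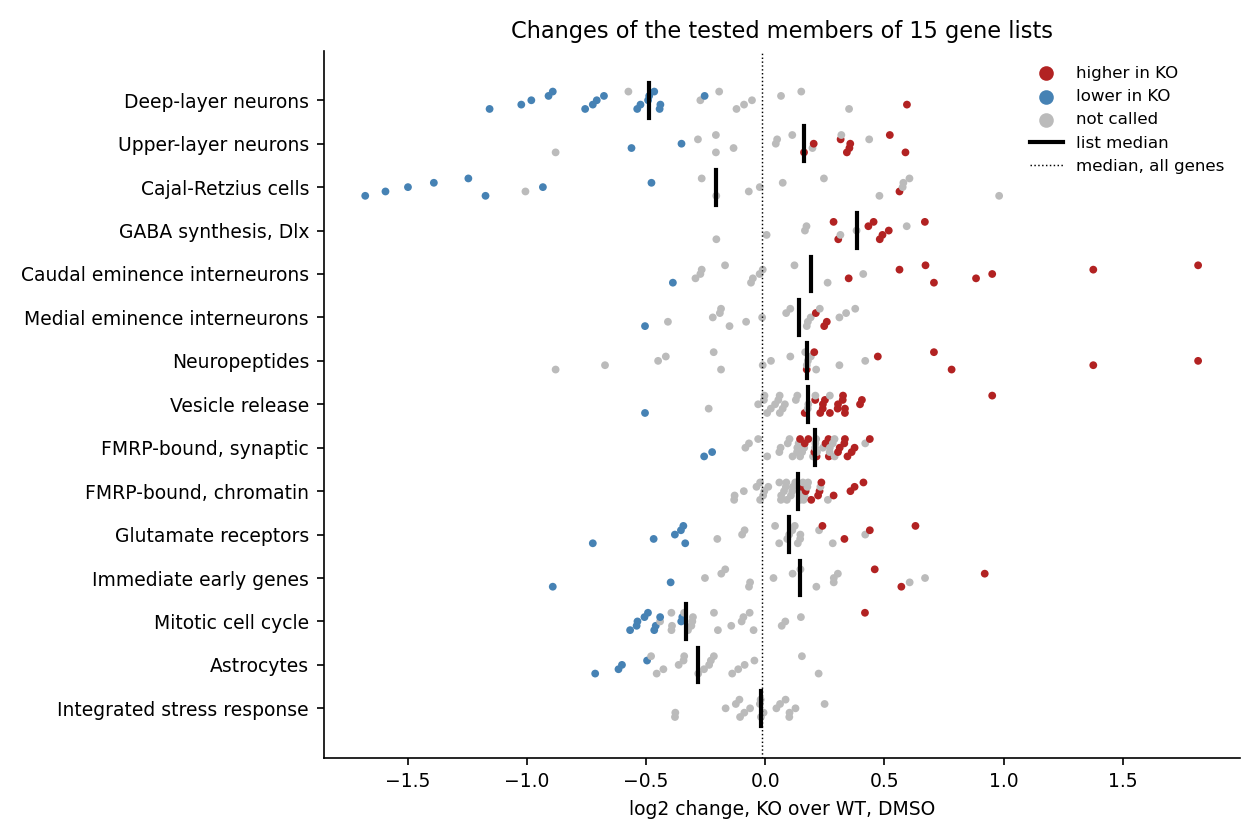
Log2 change of KO over WT in DMSO for the tested members of 15 gene lists. Red points were called higher, blue points lower and grey points neither, the thick bars are list medians and the dotted line is the median of all genes (-0.01). Deep-layer genes lie mostly left of 0, Cajal-Retzius genes reach the lowest values, and interneuron and vesicle release genes lie mostly right of 0.

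Genes of inhibitory neurons rose more often than they fell in KO. Of 15 tested genes of GABA synthesis and of the Dlx factors 8 rose (53.3%) and 0 fell, with a median of 0.38. The count of rises depended on the libraries, at 1 without WT 2, 2 without WT 1 and 3 without KO 1 or KO 2. Without WT 3, the WT library with the most subpallial factor transcripts, 9 rose. WT 1 and WT 2, which remain without WT 3, summed to 7.38 and 3.74 CPM of 7 subpallial factors, against 17.3 to 19.3 in KO. This leave-out therefore cannot show the part of subpallial cells in the result, which was not tested. The GABA and Dlx list summed to 1124, 1003 and 1173 CPM in WT and to 1430.0, 1358 and 1354 in KO. WT 3 was the highest WT library here too, and every KO library was higher.

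Cortical interneurons come from the caudal and medial ganglionic eminences of the subpallium. Of 20 tested genes of the caudal class 8 rose (40%, or 5 without WT 1 or WT 2 and 8 without WT 3) and 1 fell (0 without WT 1 or WT 2 or WT 3 or KO 1 or KO 2, 2 without KO 3 and 3 without both KO replicate 3 libraries), with a median of 0.19. Prox1, a homeobox gene of the caudal class, was at 4.102, 3.53 and 4.79 CPM in WT and 6.96, 7.92 and 8.01 in KO (log2 change 0.88, adjusted p = 0.00138). Sv2c, a vesicle glycoprotein gene, was at 2.87, 2.26 and 4.21 CPM and 6.74, 5.03 and 6.33 (0.95, adjusted p = 0.00441). In both genes WT 3 was the highest WT library, and all KO libraries were higher. The caudal list shares Vip, Cck and Tac2, all of which rose, with the neuropeptides described below. Of 20 tested genes of the medial class 3 rose (15%, or 0 without WT 2 or WT 3 or KO 1 and 1 without WT 1 or KO 2) and 1 fell (5%, or 0 without any 1 of the 6 libraries), with a median of 0.14. Lhx6, the factor gene that defines the medial class, was at 59.6, 56.9 and 64.7 CPM and 72.7, 72.4 and 67.1 (adjusted p = 0.0726), and Sst, its main peptide, at 114, 105 and 121 and 148, 126 and 112 (adjusted p = 0.464). Neither passed, and Pvalb, a marker of its fast-spiking cells, was at 0 to 0.0464 CPM and was not tested. Whether the classes differed from each other was not tested.

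Of 18 genes of striatal projection neurons 2 rose (11.1%, or 1 without WT 1 or WT 2 or KO 1 or KO 2) and 1 fell (5.56%), with a median of 0.25. Drd1a, the dopamine D1 receptor gene, was at 2.75, 2.66 and 2.78 CPM in WT and 1.51, 1.87 and 1.82 in KO (log2 change -0.65, adjusted p = 0.0125, and 0.0646 without KO 1). Of 11 genes of olfactory bulb interneurons 2 rose and 2 fell (median 0.19), and 0 to 2 rose and 0 to 2 fell when any 1 library was left out.

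Neuropeptide precursors rose where they changed. Of 23 tested genes 7 rose (30.4%, or 4 without WT 3 or KO 1) and 0 fell, with a median of 0.17. The cyclic AMP response element TGACGTCA, and its shorter core TGACG, are the binding sequences of CREB and are known from several peptide gene promoters. They were looked up on either strand in the 250 bases before the RefSeq start (GRCm38.p6) to show the regulatory sequence beside the values. The stretches below are read 5′ to 3′ on the gene's strand, with the element in capitals, for 4 genes that rose and for Sst, which did not pass.
Vip, chr10:5639109-5639173, plus strand: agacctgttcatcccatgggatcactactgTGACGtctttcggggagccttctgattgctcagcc
Cck, chr9:121495707-121495771, minus strand: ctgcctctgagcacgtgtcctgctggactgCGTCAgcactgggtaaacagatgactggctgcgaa
Chga, chr12:102554867-102554931, plus strand: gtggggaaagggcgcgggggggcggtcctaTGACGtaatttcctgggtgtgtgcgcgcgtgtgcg
Chgb, chr2:132781540-132781607, plus strand: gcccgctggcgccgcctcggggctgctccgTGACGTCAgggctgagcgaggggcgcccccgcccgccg
Sst, chr16:23890855-23890922, minus strand: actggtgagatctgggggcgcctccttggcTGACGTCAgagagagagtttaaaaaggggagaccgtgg

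The core began 79 bases before the start of Vip, 47 before Cck and 44 before Chga, and the full element 72 before Chgb and 48 before Sst. The core was present in 4 of the 5 risen peptide genes with a promoter entry and in 8 of the other 13, against 3088 of 10360 tested genes (29.8%) and 17.8% of all promoter entries. Every full element holds the core. The full element was in 1 of the 5 and in 3 of the other 13, against 3.11% of tested genes. The element was thus common in the promoters of this family whether or not the gene rose, and a match describes letters, not binding. Vip, the peptide of a caudal interneuron class, was at 0.908, 0.684 and 1.38 CPM in WT and 3.38, 2.69 and 4.42 in KO (log2 change 1.82, adjusted p = 0.00265). Cck, a peptide of interneurons and projection neurons, was at 40.2, 41.9 and 40.5 CPM and 63.5, 66.6 and 70.2 (0.71, adjusted p = 0.00127). Tac2, the neurokinin B precursor gene, whose entry held no core, was at 0.8205, 0.737 and 0.715 CPM and 1.799, 1.78 and 2.34 (1.38, adjusted p = 0.00175). Pnoc, the nociceptin precursor gene, was at 4.69, 5.42 and 5.97 CPM and 9.56, 8.2 and 9.96 (0.78, adjusted p = 0.00474). None of these 4 overlapped between genotypes. The granin genes Chga (0.17) and Chgb (0.21), whose products fill dense-core vesicles, and Vgf (0.47), a growth-factor-induced granin, rose less. Chga lost its call without WT 2 (adjusted p = 0.0943), WT 3 (0.132) or KO 1 (0.103), and Chgb without WT 3 (0.0598) or KO 1 (0.0841). Vgf lost its call without WT 2 (adjusted p = 0.0612), WT 3 (0.0643) or KO 1 (0.0568).

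Synaptic vesicle release genes that changed nearly all rose, by small amounts. Of 35 tested genes 16 rose (45.7%, against 7.21% of all genes higher) and 1 fell, with a median of 0.18. Between 12 and 18 rose when any 1 library was left out, and 18 without both KO replicate 3 libraries. Vamp2, the vesicle-side protein of the fusion complex, was at 679, 691 and 597 CPM in WT and 809, 835 and 820.1 in KO (log2 change 0.32, adjusted p = 0.00214). Syt1, the calcium sensor of fast release, was at 564, 567 and 589 CPM and 697, 688 and 649 (0.24, adjusted p = 0.00407). The genotypes did not overlap in either gene, and KO 3 was the lowest KO library for Syt1. Cplx1, a complexin that clamps the fusion machinery, rose by 0.41, the vesicle membrane genes Sv2a and Syp by 0.31 and 0.33, the priming factor Unc13a by 0.33 and the endocytic dynamin Dnm1 by 0.30. Snap25, another protein of the fusion complex, was at 377, 392 and 371 CPM and 371, 382 and 364 and did not pass (adjusted p = 0.724). The 1 member that fell, Syt2 (-0.50, adjusted p = 0.0443), lost its call when any 1 of the 6 libraries was left out.

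Messages known to be bound by FMRP were set out in 3 lists, synaptic, chromatin and other large messages. Of 45 synaptic members 16 rose (35.6%, or 9 without WT 2 or KO 2 and 10 without KO 1) and 2 fell (0 without KO 1 and 1 without WT 1 or WT 3 or KO 2 or KO 3 or both KO replicate 3 libraries), with a median of 0.21. Dlg4, the postsynaptic scaffold PSD-95, was at 329, 343 and 322 CPM in WT and 396, 414 and 385 in KO (log2 change 0.26, adjusted p = 0.00432). Nlgn2, the adhesion molecule of inhibitory synapses, was at 306, 317 and 320.0 CPM and 402, 394 and 401 (0.34, adjusted p = 0.00142). Camk2a, the kinase of synaptic plasticity and a classical FMRP target, was at 183, 211 and 197 CPM and 249, 265 and 245 (0.36, adjusted p = 0.00557). These rises were small and exceeded the spread within either genotype. Mtap1b, another classical target, was at 2766, 2884 and 3363 CPM and 3092, 3833 and 2745, overlapped and did not pass (adjusted p = 0.562). The scaffold gene Homer1 fell from 137, 134 and 132 CPM to 111, 109 and 117 (-0.26, adjusted p = 0.0122, and 0.0552 without KO 1).

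Of 54 other large FMRP-bound messages 8 rose (14.8%, or 3 without WT 2 or KO 1, 4 without WT 1 or KO 2, 15 without KO 3 and 18 without both KO replicate 3 libraries) and 0 fell (median 0.13). Tsc2, the mTOR pathway inhibitor, was at 83.6, 80.9 and 82.7 CPM in WT and 95.6, 95.3 and 103 in KO (log2 change 0.25, adjusted p = 0.004597), and Ppp2r1a, the scaffold subunit of protein phosphatase 2A, at 790.2, 789 and 769 and 933, 909.9 and 876 (0.21, adjusted p = 0.00544). Of 40 FMRP-bound chromatin messages 10 rose (25%) and 0 fell (median 0.14). That count rested on single libraries, being 0 without WT 1 or KO 2, 1 without WT 2, 3 without KO 1 and 17 without both KO replicate 3 libraries.

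Other chromatin genes were read against the targets of the study's drugs. Of 29 acetyl-lysine reader and elongation genes 3 rose (10.3% against 7.21% of all genes, or 1 without WT 1 or WT 3 or KO 2 and 5 without KO 3 or both KO replicate 3 libraries) and 0 fell (median 0.03). Supt5h, an elongation factor gene, was at 139, 145 and 139 CPM in WT and 165, 166 and 159 in KO (log2 change 0.21, adjusted p = 0.00602). Of 48 other histone-modifying enzyme genes 5 rose (10.4%, or 3 without WT 1 or WT 3 or KO 1 or KO 2 and 10 without KO 3 or both KO replicate 3 libraries) and 8 fell (16.7%, or 2 without KO 3, 3 without WT 3 or KO 1 or KO 2 and 4 without WT 1 or WT 2), with a median of 0.01. Ezh2, the methyltransferase of Polycomb repressive complexes, fell from 28.8, 27.01 and 26.8 CPM to 19.1, 19.8 and 23.4 (-0.41, adjusted p = 0.00831). The arginine methyltransferase genes Prmt8 (0.30) and Prmt5 (0.20) and the lysine methyltransferase gene Smyd3 (0.25) rose.

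Ionotropic glutamate receptor genes changed in both directions. Of 25 tested genes of AMPA, NMDA and kainate receptors and their auxiliary proteins 4 rose (16%) and 6 fell (24%, or 3 without WT 3 or KO 1), with a median of 0.10. Grin1, the obligatory NMDA receptor subunit, was at 95.9, 94.8 and 95.6 CPM in WT and 131, 133 and 125 in KO (log2 change 0.44, adjusted p = 0.00108). Gria1, an AMPA receptor subunit, was at 278, 279 and 297 CPM and 373, 366 and 337 (0.33, adjusted p = 0.001596). Grin3a, an NMDA subunit of immature synapses, was at 67.95, 64.9 and 73.2 CPM and 46.1, 56.01 and 46.7 (-0.47, adjusted p = 0.00215). The first 2 rose and the third fell, with no overlap in any of the 3. The kainate receptor family also parted, Grik4 being at 10.4, 10.3 and 9.74 CPM and 16.1, 15.1 and 16.04 (0.63, adjusted p = 0.00169), Grik2 at 79.9, 80.2 and 80.6 and 59.1, 62.4 and 63.5 (-0.38, adjusted p = 0.000232) and Grik3, which the deep-layer list also holds, at 113, 113 and 138 and 62.5, 87.2 and 70.5 (-0.72, adjusted p = 0.00439).

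Of 22 genes of metabotropic glutamate receptors and their signalling 4 rose (18.2%, or 2 without KO 1 or KO 2) and 2 fell (9.09%, or 0 without KO 1 and 1 without WT 1 or WT 3 or KO 2 or KO 3 or both KO replicate 3 libraries), with a median of -0.02. Grm5, the main group I receptor of these neurons, was at 322, 290.2 and 317 CPM in WT and 247, 275 and 274 in KO (log2 change -0.22, adjusted p = 0.0425), and lost its call in 8 of 13 settings, among them without WT 1 (0.131), WT 3 (0.118), KO 1 (0.181), KO 2 (0.0667) or KO 3 (0.063). Mapk3, the kinase ERK1 downstream of it, was at 142, 151 and 145 CPM and 186, 180.0 and 171 (0.29, adjusted p = 0.00327), and Ncdn, the gene of neurochondrin, which binds Grm5, at 464, 474 and 496 and 580.2, 557 and 569.5 (0.25, adjusted p = 0.00687). Of 17 GABA-A receptor genes 1 rose (5.88%, or 2 without WT 3 or KO 3 or both KO replicate 3 libraries) and 2 fell (11.8%, or 0 without KO 1, 1 without WT 1 or WT 2 or WT 3 or KO 2 and 5 without both KO replicate 3 libraries), with a median of -0.05. Gabrg3 rose from 21.9, 20.95 and 25.3 CPM to 29.4, 29.1 and 28.2 (0.35, adjusted p = 0.00849), and Gabrb2 fell from 188, 187 and 196 to 150.4, 165 and 161 (-0.26, adjusted p = 0.0105, and 0.0616 without KO 1). Of 20 potassium channel genes tied to FMRP 3 rose (15%, or 0 without WT 3 or KO 1, 1 without WT 1 or WT 2 or KO 2 and 5 without both KO replicate 3 libraries) and 0 fell (median 0.12).

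Activity-regulated genes did not move as 1 group. Of 19 immediate early genes, which neurons switch on within minutes of firing, 3 rose (15.8%, or 1 without WT 3 or KO 1) and 2 fell (10.5%, or 1 without WT 1 or WT 2 or KO 1), with a median of 0.15. Egr1, a zinc finger factor gene, was at 9.201, 8.69 and 11.3 CPM in WT and 17.4, 15.3 and 22.6 in KO (log2 change 0.92, adjusted p = 0.00142). Nr4a2, an orphan nuclear receptor gene that also marks deep-layer and subplate neurons, was at 24.03, 26.4 and 28.4 CPM and 12.5, 14.99 and 14.9 (-0.89, adjusted p = 4.19e-05). These 2 were the strongest calls of the list and had opposite signs. Fos was at 3.05, 3.47 and 2.89 CPM and 4.25, 3.42 and 3.85 (adjusted p = 0.176), Arc at 1.93, 1.71 and 2.04 and 1.91, 1.67 and 1.84 (0.776) and Npas4 at 2.37, 1.74 and 1.79 and 2.96, 2.12 and 3.92 (0.109). All 3 overlapped between genotypes and were under 5 CPM in every library. Of 31 delayed activity-regulated genes 4 rose (12.9%, or 1 without WT 2 or WT 3 or KO 1) and 3 fell (9.68%, or 0 without KO 1 and 1 without WT 1 or KO 2), with a median of -0.0038. Spry4, an inhibitor of growth factor signalling, rose from 10.96, 9.82 and 9.32 CPM to 14.5, 13.5 and 15.2 (0.52, adjusted p = 0.00215), and Bdnf, the neurotrophin gene, was at 5.45, 4.63 and 4.43 CPM and 5.198, 4.98 and 4.73 without passing (adjusted p = 0.902).

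Genes of dividing cells, progenitors and astrocytes had medians below 0. Of 30 mitotic genes 10 fell (33.3%, or 1 without WT 3 or KO 1, 2 without WT 2 or KO 2 and 5 without WT 1) and 1 rose (median -0.33). Their levels summed to 724 to 766 CPM in WT and 598 to 705 in KO. Cenpf, a kinetochore gene, was at 24.5, 25.1 and 29.7 CPM in WT and 15.8, 18.9 and 18.8 in KO (log2 change -0.57, adjusted p = 0.00636). Ccnd1, the cyclin D1 gene, rose from 28.6, 30.5 and 29.6 CPM to 40.5, 38.4 and 39.7 (0.42, adjusted p = 0.00138), against the list's median. Of 24 radial glia and progenitor genes 5 fell (20.8%, or 1 without WT 2 or WT 3 or KO 1 or KO 2) and 0 rose (median -0.21). Id4, an inhibitor of helix-loop-helix factors, was at 23.4, 23.4 and 27.1 CPM and 17.9, 18.4 and 20.6 (-0.38, adjusted p = 0.00902).

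Of 21 astrocyte genes 4 fell (19%, or 1 without KO 1 and 2 without WT 3) and 0 rose (median -0.28), and their levels summed to 1025 to 1243 CPM in WT and 809 to 1067 in KO. Bmpr1b, a bone morphogenetic protein receptor gene, was at 6.68, 7.03 and 8.11 CPM in WT and 4.18, 4.503 and 4.62 in KO (log2 change -0.71, adjusted p = 0.00241). Fgfr3, a fibroblast growth factor receptor gene of astrocytes, was at 32.4, 37.6 and 37.3 CPM and 19.8, 23.6 and 26.6 (-0.62, adjusted p = 0.0119, and 0.0637 without KO 1). The defining markers Gfap (10.5, 12.9 and 14.3 CPM, then 9.51, 12.8 and 13.2) and Aqp4 (19.6, 23.98 and 26.3, then 15.2, 20.5 and 21.8) overlapped and did not pass. The part of these cells in the changes of other genes was not tested.

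Other cell classes were read from their own marker lists. Of 13 oligodendrocyte lineage genes 0 rose and 0 fell in edgeR (0 at an unadjusted p under 0.05), 0 of 10 in DESeq2, and 2 rose without WT 3. Of 17 microglia and macrophage genes 1 rose, Marco, a scavenger receptor gene (1.11, adjusted p = 0.0361), which lost its call without WT 1, WT 2, WT 3 or KO 1. Their levels summed to 28.8 to 31.6 CPM in WT and 30.03 to 39.02 in KO, with Siglech at 0 in all 6 libraries. Of 9 endothelial and mural cell genes 0 rose and 0 fell in edgeR (4 at an unadjusted p under 0.05), 0 of 6 in DESeq2, and 2 rose without KO 2. The endothelial genes Cldn5 and Cdh5 stayed under 0.1 CPM. Of 6 choroid plexus genes 1 rose, without holding when any 1 library was left out. Of 18 meningeal fibroblast and matrix genes 3 rose (5 without KO 2) and 3 fell (median 0.40). Dcn, the proteoglycan decorin, fell from 24.1, 32.1 and 27.7 CPM to 7.74, 13.1 and 11.9 (-1.36, adjusted p = 0.00136), and Ptgds, a prostaglandin synthase gene, from 2.52, 3.34 and 3.63 to 1.82, 1.59 and 1.68 (-0.90, adjusted p = 0.001995). Dpt, the matrix protein dermatopontin, rose from 2.17, 2.47 and 1.93 CPM to 4.398, 3.71 and 3.39 (0.81, adjusted p = 0.00477), and the basement membrane gene Nid1 from 0.938, 0.869 and 1.18 to 2.47, 1.58 and 2.099 (1.03, adjusted p = 0.007496). These fibroblast-linked genes hence went both ways.

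The matrix around neurons was represented by 20 perineuronal net and hyaluronan genes, of which 1 rose (5%, or 2 without KO 3 or both KO replicate 3 libraries) and 3 fell (15%, or 1 without WT 3), with a median of -0.16. Hapln1, the link protein that ties hyaluronan to proteoglycans, was at 8.23, 7.16 and 9.54 CPM in WT and 21.2, 14.2 and 23.4 in KO (log2 change 1.24, adjusted p = 0.00943). KO 2 was the lowest KO library and lay well above WT. Has3, a hyaluronan synthase gene, fell from 42.2, 39.5 and 42.3 CPM to 32.4, 34.98 and 29.2 (-0.36, adjusted p = 0.00989), so link protein and synthase had opposite signs.

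Metabolic and housekeeping lists had medians of 0.10 or less. Of 22 cholesterol synthesis genes 7 rose (31.8%, or 3 without WT 3 or KO 1 or KO 2 and 4 without WT 1) and 0 fell (median 0.08). The mevalonate pathway gene Mvd was at 169, 166 and 153 CPM in WT and 204, 211 and 195 in KO (log2 change 0.32, adjusted p = 0.00358). Of 21 hypoxia and glycolysis genes 7 rose (33.3%, or 1 without KO 1, 3 without WT 3 or KO 2 and 4 without WT 1) and 2 fell (0 without WT 2 and 1 without WT 1 or WT 3 or KO 1 or KO 2 or KO 3), with a median of 0.10. Aldoa, the aldolase of glycolysis, was at 277, 285 and 280.3 CPM and 335, 338 and 355 (0.29, adjusted p = 0.00146). Of 77 ribosomal protein genes 12 rose (15.6%, or 3 without WT 1, 4 without KO 1, 6 without WT 2 and 7 without WT 3) and 2 fell (0 without WT 2 or KO 1 or KO 2 and 1 without WT 1 or WT 3 or KO 3 or both KO replicate 3 libraries), with a median of 0.06. Many of them have near-identical pseudogenes between which reads can be split. By adjusted p Rpl18 came first, at 98.02, 100.2 and 98.7 CPM and 135, 125 and 133 (0.40, adjusted p = 0.000899).

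Of 81 nuclear respiratory chain genes 8 rose (9.88%, or 0 without KO 1, 3 without WT 1 and 5 without WT 2 or KO 2) and 0 fell (median 0.05), close to the share of all genes. Of 12 protein genes of the mitochondrial genome 0 were called in edgeR (median -0.07, 1 at an unadjusted p under 0.05) and in DESeq2, while 3 fell without KO 3 and 5 without both KO replicate 3 libraries. Of 31 mTOR and translation control genes 2 rose (6.45%, or 1 without WT 2 or WT 3 or KO 1 or KO 2, 5 without KO 3 and 8 without both KO replicate 3 libraries) and 3 fell (9.68%, or 0 without KO 1 and 1 without WT 1 or WT 2 or KO 2 or KO 3), with a median of -0.02. Both shares were near those of all genes. Of 19 integrated stress response genes 0 were called in edgeR (median -0.02, 6 at an unadjusted p under 0.05) and 2 in DESeq2, with Atf4, its central factor, at 163, 171 and 161 CPM and 177, 174 and 160.3. Of 16 p53 target genes 1 rose and 1 fell, and of 15 interferon-stimulated genes 1 rose and 0 fell, counts that went to 0 without WT 1. Of 9 skeletal muscle genes 2 rose, Myh8, a myosin heavy chain gene (0.92, adjusted p = 0.00889), and Neb, the giant thin-filament protein nebulin (0.84), the latter lost without WT 1, WT 2, KO 1 or KO 2.

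Gene length was looked at because many FMRP-bound messages come from long genes. Protein-coding genes were parted into 5 classes of equal size by the span of the gene in GRCm38. In the shortest class, up to 8.55 kb, 241 of 2794 genes rose and 115 fell, with a median log2 change of 0.03. The second class had 239 rises and 189 falls and the third, up to 35.5 kb, 224 and 231. In the fourth class, up to 80.3 kb, 171 rose and 328 fell (median -0.05), and in the longest 216 rose and 292 fell (median -0.02). The shortest class thus had more rises than falls and the fourth class and the longest the reverse. The longest class turned without both KO replicate 3 libraries, with 383 rises, 258 falls and a median of 0.02, and without WT 3 it had 170 rises and 151 falls.

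The same genotypes were also compared in JQ1, in 6 other libraries. Whether these share cultures or animals with the DMSO libraries of the same number is not given. The 2 comparisons are therefore not known to be independent. There 1385 genes (8.97%) were called, of which 748 (4.85%) rose and 637 (4.13%) fell. Of the 1113 genes that rose in DMSO 1099 (98.7%) had the same sign in JQ1 and 540 rose there too, and of the 1198 that fell 1181 (98.6%) had the same sign and 435 fell. No gene called in DMSO was called the other way in JQ1. Among the 13122 genes not called in DMSO the sign was shared by 9836 (75.0%). The test of the difference between the 2 genotype effects called 0 of 15433 genes (0.0%) in edgeR and 0 in DESeq2, with 355 and 235 at an unadjusted p under 0.05. Differences too small for 3 libraries a group were not detectable.

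Values of single genes are set side by side. Sox5 had a log2 change of -1.02 in DMSO and -1.12 in JQ1 (adjusted p = 3.58e-06), Lmo3 -0.68 and -0.72 (8.03e-06), and Mid1 -3.10 and -3.79 (7.65e-08). Among those that rose, Prdm8 had 0.59 and 0.58 (6.19e-05), Cck 0.71 and 0.61 (0.00549), and Vip 1.82 and 2.22 (0.00262). Ptpru had 0.73 in DMSO and 0.23 in JQ1, where it did not pass (adjusted p = 0.0845), and Egr1 had 0.92 and 0.53 (0.0218). Of the deep-layer list 15 fell and 2 rose in JQ1, and of the vesicle release list 14 rose and 0 fell. Of the FMRP-bound chromatin list 0 rose and 0 fell there.

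**Figure D5:**
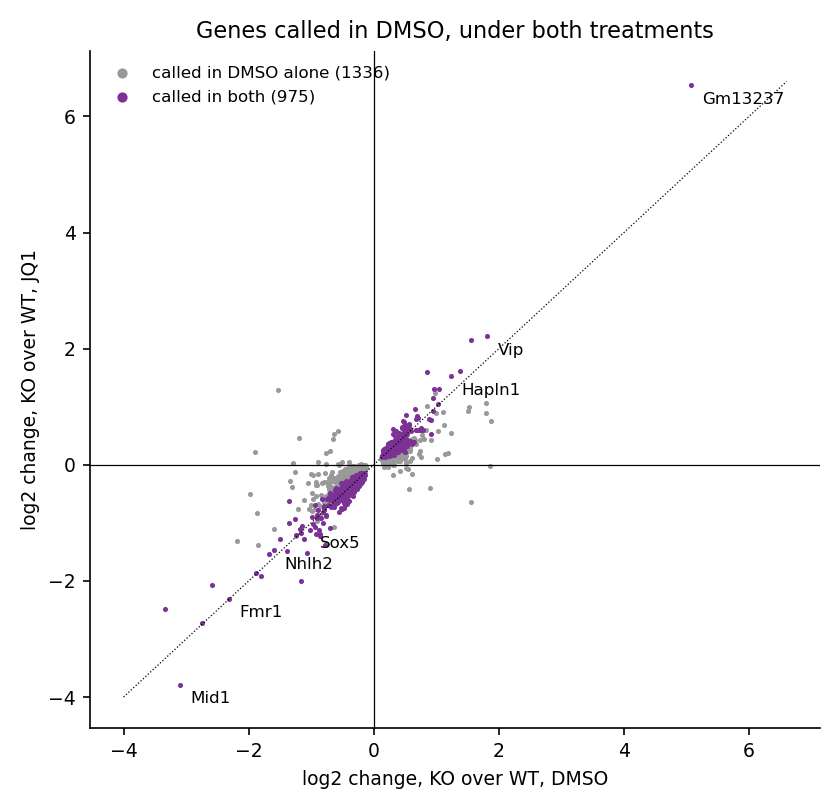
Log2 change of KO over WT in JQ1 against that in DMSO for the 2311 genes called in DMSO. Purple points were called under both treatments (975) and grey points in DMSO only (1336), and the dotted line marks equal changes. Nearly all points lie in the quadrants of equal sign.

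The authors' deposited table of KO against WT was set beside these calls. It lists 23866 genes, gives an adjusted p for 11880 and has 2822 of them under 0.05, 1534 higher and 1288 lower in KO. Of the 2311 genes called here 2015 were also called in the authors' deposited table, all 2015 with the same sign, and 296 were called here alone. A further 807 were called in the authors' deposited table alone. For Fmr1 the authors' deposited table gives a log2 change of -2.003 with no adjusted p, and for Mid1 one of -1.36 with an adjusted p = 7.5e-25, against -3.10 here. The model behind the authors' deposited table is unknown, and its log2 changes may be shrunken toward 0, so the sizes in the 2 sources cannot be compared.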

How the data were processed

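RNA-seq libraries of WT and Fmr1 KO neurons in DMSO, 3 each, were analysed with the 6 JQ1 libraries of the same table. The deposited values are raw read counts per gene, and the submitters' processing notes name TopHat2 2.1.0, SAMtools 0.1.19, HTSeq 0.6.1, DESeq and DESeq2 and the build mm9. The sources used here do not give the counting mode or the strandedness. The authors' deposited comparison table gives baseMean (a normalised count signal), log2 fold changes with standard errors on the log2 scale, a test score (the Wald statistic) and p-values with adjusted p-values. Its log2 values and p-values are quoted only where named, and its signal and score were not used further.

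The 92 spike-in rows were set aside. edgeR 4.0.16 (R 4.3.3) was run on the counts of 12 libraries in 4 groups, with a minimum count of 10 (filterByExpr), TMM scaling, a quasi-likelihood F test per contrast and Benjamini-Hochberg adjustment over 15433 genes, calling an adjusted p under 0.05. The 12 libraries held 21643592 to 134110850 gene counts, and the coefficient of biological variation was 6.69%. CPM used TMM-scaled library sizes. The fit was tested on simulated data. WT and KO libraries of the same number in DMSO did not deviate together (correlations of 0.0112, -0.0651 and -0.18), so the genotypes were not paired. Whether DMSO and JQ1 libraries of the same number deviate together was not tested, and the main fit did not pair them.

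Members and gene lists were chosen with earlier results of these data known. The genes named were Fmr1, the called genes without overlap of largest change or smallest adjusted p at 10 CPM or more, up to 4 members of each list by adjusted p with the defining markers of cell types, and the neighbours of Fmr1 and Mid1. The alternatives were DESeq2 1.42.0, other scaling (RLE, spike-ins) and filters, the 6 DMSO libraries alone, a replicate block and left-out libraries. The leave-out of both KO replicate 3 libraries stands among them because of their low Xist. Gene order and span came from GENCODE for GRCm38 by Ensembl identifier, which matched 98.6% of the coding genes tested, and promoter stretches from RefSeq (GRCm38.p6), none of them with coordinates of mm9. THZ1 samples were not analysed here. Values of some single genes are not reported here.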

Additional observations from a re-analysis of the deposited data

How the results depend on the processing

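The 2311 genes called in DMSO became 2637 with DESeq2, 2265 with RLE scaling, 2389 without a filter, 2405 with a minimum count of 50, 2711 in the 6 DMSO libraries alone and 3198 without both KO replicate 3 libraries. They became 681 at an adjusted p under 0.01 and 11994 with spike-in scaling, which shifts all genes. Leaving out 1 library gave 805 to 2509. The 61 genes beyond 2-fold became 25 with DESeq2 and 20 with a minimum count of 50, and 34 (without KO 1) to 78 with 1 library left out, 40 of them without WT 2. The 1385 genes called in JQ1 became 2497 without both KO replicate 3 libraries. The test of the difference between DMSO and JQ1 called 0 genes in edgeR (355 at an unadjusted p under 0.05), in DESeq2, with RLE scaling, in the replicate block and without both KO replicate 3 libraries. With the replicate number as a block 2789 genes were called in DMSO and 1953 in JQ1, and 0 of 3 pairs of WT and KO libraries in DMSO correlated best within their own number. The count rose without KO 3 and fell without any of the other 5 libraries, and the cause was not tested. With 3 libraries a group, called changes under 1.5-fold (1047 higher, 1040 lower) lie nearest to what the spread and depth can show.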

Other observations

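Some genes of myeloid cells and inflammation, named after their values were seen, were higher in KO at very low levels. Of the 17 tested genes of the microglia and macrophage list, by contrast, only Marco rose and 0 fell. Others of that list went both ways without passing, such as Cx3cr1 (log2 change -0.66) and C1qb (0.73). Irg1, which encodes the enzyme that makes itaconate in activated macrophages, was at 0.293, 0.158 and 0.358 CPM in WT and 1.47, 0.727 and 0.792 in KO (edgeR log2 change 1.88, adjusted p = 0.00460). Fcrls, a microglial Fc receptor-like gene, was at 0.820, 0.553 and 0.605 CPM and 1.80, 1.32 and 1.20 (1.13, adjusted p = 0.00638). Both kept their call in 13 of 13 settings. The 7 such genes summed here had all been called higher, so their sum had to be higher in KO and is not a test. The sum was 3.31, 2.58 and 3.66 CPM in WT and 11.0, 6.39 and 5.58 in KO, with KO 1 the highest. The calls of the other 5 (Marco, Cd52, C5ar1, Ncf1 and Ccl3) were lost in 3 to 5 settings each, without KO 1 among them.

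Gm13237, a pseudogene named outside the rule given above, was at 0, 0 and 0.0275 CPM in WT and 0.436, 0.464 and 0.258 in KO (edgeR adjusted p = 0.0024). The 2 groups did not overlap, as in 37.6% of all genes tested. These levels are close to 0, and every KO library was deeper than every WT library.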
